A study of Mus musculus with 19 samples.

Results

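The genes described here are 7 enzymes of the cholesterol synthesis pathway, Hmgcs1, Idi1, Fdft1, Sqle, Lss, Cyp51 and Dhcr7. They were chosen by name, with earlier results of these data known, each through the single Ensembl identifier that carries its symbol. All 7 were found among the 34807 genes in the count table and passed the filter on low counts. The study asked how the cell in which a skin tumour starts shapes the tumour, and sequenced the RNA of whole squamous cell carcinomas and of whole normal skin from female mice. Tumours were driven by the activated kinase BRAFV600E, which an inducible Cre recombinase had turned on, according to the labels, in mice 7 to 20 weeks old. The methods give a narrower range of ages. There were 6 Ivl tumours (genotype Ivl:BRAFV600E, Cre under the promoter of involucrin, a protein of differentiating keratinocytes), 5 K5 tumours (K5:BRAFV600E) and 4 K14 tumours (K14:BRAFV600E), the latter 2 with Cre under the promoters of basal keratin genes. The 4 libraries of normal skin came from wild-type (WT) animals, which the study describes as control littermates. All mice were on a C57BL/6J background. According to the methods, the Ivl line was induced with tamoxifen on the shaved back and the K5 and K14 lines with 4-hydroxytamoxifen, so the inducing agent and the Cre line cannot be told apart. The paper also reports a longer latency and tumours at more body sites in the Ivl model. Latency, and with it age at collection, therefore cannot be told apart from the Cre line either. The labels of the normal skin carry the same note on induction at 7 to 20 weeks as those of the tumours, although wild-type animals lack the allele it names, and neither the age of the skin donors nor whether they received either agent is given separately. The labels do not say whether each library came from a separate animal, and the p-values measure the spread between these libraries.

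Cholesterol is built from acetyl-CoA in a long chain of enzymes. The first steps form mevalonate and then the isoprene units from which farnesyl diphosphate is made. Squalene synthase commits farnesyl diphosphate to sterols, squalene is oxidised and closed into lanosterol, and lanosterol is trimmed and reduced to cholesterol. The transcription factor SREBP2, encoded by Srebf2, turns most of these genes on together when the endoplasmic reticulum is short of sterol, and the INSIG proteins hold it back when sterol is plentiful. In the epidermis, keratinocytes make much of their own cholesterol, which goes into the lipid layers of the skin barrier. Sebaceous glands and fat cells are further sites of lipid synthesis in skin.

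Since the 7 genes are known to share a regulator, the DNA in front of their starts was read for its motif. RefSeq promoters (GRCm38.p6, from 250 bases before to 50 bases after the start) were given for 5 of the 7 genes, all but Sqle and Fdft1. The stretches shown end before the first base of the gene in GENCODE, start 200 bases before the RefSeq start, run 5′ to 3′ on the strand of the gene, and carry in capitals every match to the sterol element TCACCCCAC, to the NF-Y box CCAAT and to the Sp1 box GGGCGG, searched on both strands, so that ATTGG and CCGCCC are CCAAT and GGGCGG on the other strand. They are Hmgcs1 at chr13:119690151-119690350 on the plus strand, Lss at chr10:76531405-76531587 on the plus strand, Dhcr7 at chr7:143822967-143823144 on the plus strand, with the RefSeq start nearest to that of GENCODE among 3, and Cyp51 at chr5:4104747-4104897 on the minus strand.
Hmgcs1: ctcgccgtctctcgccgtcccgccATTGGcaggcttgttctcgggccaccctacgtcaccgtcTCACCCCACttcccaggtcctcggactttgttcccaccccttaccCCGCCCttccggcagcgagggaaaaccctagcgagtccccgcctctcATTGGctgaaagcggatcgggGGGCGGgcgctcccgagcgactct
Lss: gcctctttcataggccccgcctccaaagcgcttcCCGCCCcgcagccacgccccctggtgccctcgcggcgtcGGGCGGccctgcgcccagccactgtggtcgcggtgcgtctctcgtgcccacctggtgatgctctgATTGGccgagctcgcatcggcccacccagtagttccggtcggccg
Dhcr7: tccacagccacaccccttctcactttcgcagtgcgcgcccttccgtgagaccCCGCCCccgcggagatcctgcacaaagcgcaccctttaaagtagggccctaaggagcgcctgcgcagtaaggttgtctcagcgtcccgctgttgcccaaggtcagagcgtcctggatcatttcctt
Cyp51: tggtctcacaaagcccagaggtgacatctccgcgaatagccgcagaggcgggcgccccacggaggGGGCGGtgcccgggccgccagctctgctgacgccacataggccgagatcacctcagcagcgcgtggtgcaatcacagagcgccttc

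In the whole windows, TCACCCCAC was found in Hmgcs1 alone of the 5, at bases -137 to -129 counted back from the start, and in 0.551% of 32851 mouse promoters. The looser forms TCACNCCAC and TCANNCCAC overlap it and were matched at the same place and in no other of the 5, against 1.24% and 4.18% of all promoters. CCAAT was present in 4 of the 5 (all but Dhcr7) and in 37.4% of all promoters, and GGGCGG in 5 of 5 and 35.7%. The E-box CACGTG was in 0 of the 5 and in 7.15% of all promoters. A match is a description of letters, and the absence of one says only that these letters are not in this window. The matches of Idi1 and the CCAAT of Cyp51 lie past the GENCODE start of the gene and are not shown.

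Levels are given as CPM, the counts of a gene relative to its library's size after TMM scaling (trimmed mean of M values). Changes are log2 fold changes ± SE from the quasi-likelihood test of edgeR, and adjusted p refers to Benjamini-Hochberg adjustment over all 32031 genes tested. The 9 tumours of the K5 and K14 models formed 1 group (K5/K14) beside the comparison of these models with each other. Library totals ran from 45715309 to 72609771 counts, and each of the 7 genes had at least 857 counts in each library, so counting error was small beside the spread between libraries. The paper describes 2 batches sequenced at different times, of 4 and 15 libraries, and its text does not name their members. Libraries Ivl 1, 2 and 3 and K5 1 carried a mark of the authors' batch adjustment and were taken here as a set, inferred from the values. For 96.6% of 13954 genes the means of these 4 and of the other 15 libraries differed by less than 0.1 on the log2 scale, and for the 7 genes the difference was 0.02 to 0.06. These 4 are all tumours, while the other 15 include all 4 skin libraries. What this did to the levels of the set of 4 was not tested. Results are given with 19 libraries and, where it matters, with the other 15. Rn7sk, an RNA without a poly(A) tail, was at 2279 to 3275 CPM in skin, at 934 in Ivl 3, at 1283 in Ivl 2 and at 2.12 to 13.3 in the other tumours, and its part in the results was not tested. Genes at 0 counts numbered 3242 to 3670 in the skin libraries and 5562 to 10882 in the tumours. Such differences between libraries cannot be told apart from that between tumour and skin, and every change against skin shares them.

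All 7 genes rose in both groups of tumours against normal skin, except that Dhcr7 turned below 0 when the libraries were scaled by their totals alone. In Ivl tumours the call of Dhcr7 was also lost under several other settings described below, and that of Lss with library totals. In Ivl tumours 7 of 7 were raised, against 20.4% of all genes tested that rose and 15.5% that fell, and in K5/K14 tumours 7 of 7 were raised, against 23.2% that rose and 38.9% that fell. With the 15 libraries outside the set of 4, 7 of 7 rose in both comparisons, beside 22.2% and 23.9% of all genes. The median log2 fold change of the 7 was 1.51 in Ivl tumours and 1.70 in K5/K14 tumours, while the median over all genes was -0.46 and -0.60. Every Ivl tumour was above every skin library for 4 of the 7 genes, beside 13.2% of all genes, and every K5/K14 tumour for 6 of the 7, beside 16.7%. The 7 genes were chosen with earlier results known, so the shares of all genes beside them are a description. Both comparisons use the same 4 skin libraries. In whole tissue, more cells of a type and more RNA per cell cannot be told apart.

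**Figure D1:**
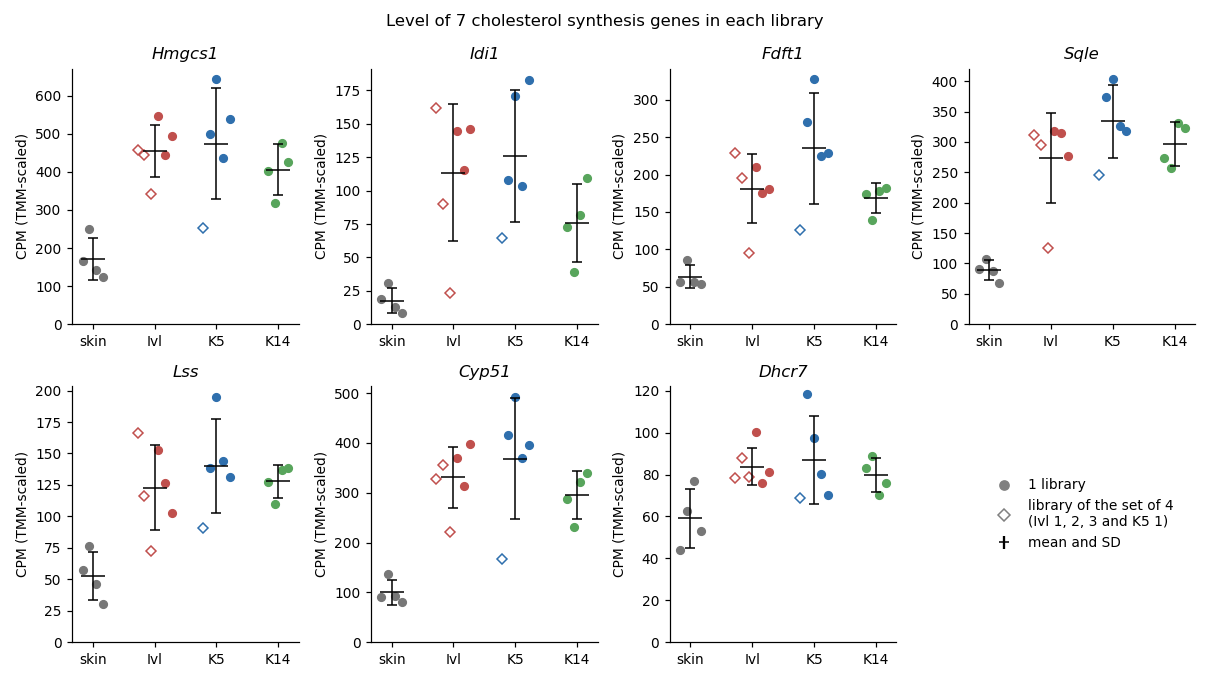
Level of each gene in CPM (y axis, linear from 0) in each of the 19 libraries by group (x axis), with the mean and SD of each group as black bars and the set of 4 libraries as open diamonds. All 15 tumours lie above all 4 skin libraries for Hmgcs1, Fdft1, Sqle and Cyp51, the low points are mostly Ivl 3 and K5 1, and the groups overlap for Dhcr7.

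Hmgcs1 makes HMG-CoA, the substrate from which mevalonate is formed. Skin libraries 1 to 4 held 167, 249.5, 144 and 123 CPM, and the Ivl tumours ran from 341 to 546 with a median of 451. The K5 tumours held 253, 499, 644, 437 and 538 CPM and the K14 tumours 403, 318, 477 and 426. Every tumour was above every skin library, although K5 1 (253) was close to skin 2 (249.5). Hmgcs1 rose by 1.41 ± 0.24 on the log2 scale in Ivl tumours (2.66-fold, adjusted p = 0.000115) and by 1.38 ± 0.22 in K5/K14 tumours (2.6-fold, adjusted p = 5.46e-05).

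Idi1 interconverts the 2 activated isoprene units. Of the 7 genes it had the largest rise. Skin held 18.9, 30.6, 13.0 and 8.36 CPM. In Ivl tumours Idi1 ran from 23.5 to 162 CPM, with a median of 129.9. K5 tumours held 64.9, 108, 170.5, 103 and 183 CPM and K14 tumours 73.0, 38.7, 81.9 and 109.7. One tumour, Ivl 3, fell inside the range of skin, and the other 14 were above it. The rise was 2.68 ± 0.52 in Ivl tumours (6.41-fold, adjusted p = 0.000557) and 2.55 ± 0.50 in K5/K14 tumours (5.86-fold, adjusted p = 0.000364). Relative to its mean, Idi1 also varied most within the tumour groups, with an SD of 50.96 CPM around a mean of 114 in the 6 Ivl tumours and 49.3 around 126 in the 5 K5 tumours. A processed copy of Idi1 elsewhere in the genome, Gm13502, is identical to it over 684 bases and held a mean of 119 counts against 4553 for Idi1, and how the counting treated reads that match both is not given in the sources used here.

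Fdft1 is squalene synthase, the first enzyme that serves sterols alone. It was at 56.2, 86.4, 57.0 and 53.8 CPM in skin and at 95.8 to 228 CPM in Ivl tumours, with a median of 188. K5 tumours held 125, 269.6, 328, 225 and 229 CPM, and K14 tumours 174, 139.7, 179 and 182. The groups did not overlap, with Ivl 3 (95.8) nearest to skin 2 (86.4). Fdft1 rose by 1.51 ± 0.27 in Ivl tumours (2.86-fold, adjusted p = 0.000186) and by 1.70 ± 0.26 in K5/K14 tumours (3.25-fold, adjusted p = 2.59e-05). Exons of Fdft1 overlap those of Ctsb on the opposite strand over 774 bases, and Ctsb held a mean of 43619 counts against 8851 for Fdft1. Whether the counting used strand is not given in the sources used here, so reads from the overlap cannot be assigned with certainty to Fdft1.

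Sqle, squalene monooxygenase, adds the oxygen that allows ring closure and is a rate-limiting step of the sterol branch. In skin it was at 91.3, 108, 87.6 and 68.2 CPM. Ivl tumours ran from 125 to 319 CPM, with a median of 303, K5 tumours held 246, 375, 404, 326 and 319, and K14 tumours 274, 258, 332 and 324. Every tumour was above every skin library. The rise in Ivl tumours was 1.62 ± 0.22 (3.08-fold, adjusted p = 2.39e-05), and in K5/K14 tumours it was 1.84 ± 0.22 (3.58-fold, adjusted p = 2.49e-06), in both cases the smallest adjusted p of the 7 genes.

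Lss closes oxidised squalene into lanosterol, the first sterol. Skin held 57.0, 76.2, 45.9 and 30.6 CPM. Lss was at 72.5 to 166 CPM in Ivl tumours, with a median of 121, at 91.0, 139, 195, 144 and 132 in K5 tumours and at 127, 109.6, 137 and 139 in K14 tumours. Ivl 3 (72.5) lay below skin 2 (76.2), and the other 14 tumours lay above all skin. Lss rose by 1.23 ± 0.25 in Ivl tumours (2.34-fold, adjusted p = 0.000722) and by 1.36 ± 0.24 in K5/K14 tumours (2.57-fold, adjusted p = 0.000112).

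Cyp51 is the cytochrome P450 that removes the 14-alpha methyl group from lanosterol. It was at 90.1, 136, 93.5 and 80.0 CPM in skin. Ivl tumours ran from 222 to 397 CPM with a median of 341, K5 tumours held 167, 416, 493, 369 and 395, and K14 tumours 288, 232, 322 and 339. No tumour reached down to the skin range, K5 1 being the closest. Cyp51 rose by 1.73 ± 0.25 in Ivl tumours (3.31-fold, adjusted p = 3.59e-05) and by 1.75 ± 0.24 in K5/K14 tumours (3.36-fold, adjusted p = 1.08e-05). Its 166 bases of exon shared with Akap9 on the opposite strand carry the same uncertainty as those of Fdft1.

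Dhcr7 reduces 7-dehydrocholesterol, which is also the precursor of vitamin D in skin, to cholesterol. It changed least. Skin held 44.0, 62.5, 76.7 and 53.0 CPM, Ivl tumours ran from 76.2 to 100.1 with a median of 80.2, K5 tumours held 68.6, 118, 97.5, 80.5 and 70.1, and K14 tumours 83.3, 89.0, 70.5 and 75.7. Skin 3 (76.7) overlapped the lower tumours of all 3 models. The rise was 0.51 ± 0.16 in Ivl tumours (1.42-fold, adjusted p = 0.0221) and 0.50 ± 0.15 in K5/K14 tumours (1.42-fold, adjusted p = 0.00878). The call in Ivl tumours did not hold without Ivl 4, K14 1, skin 1 or skin 4 (log2 fold changes 0.38 to 0.45, adjusted p = 0.0523 to 0.0889), and both calls for Dhcr7 depended on the scaling, as described next.

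TMM set the scale between libraries, and other scalings shifted all genes. With library totals alone the median of all genes moved by -0.67 in Ivl tumours and by -0.80 in K5/K14 tumours, and with relative log expression (RLE) scaling by -0.13 and -0.11. Calls over all genes were 6535 raised and 4980 lowered in Ivl tumours, against 5712 and 6828 with RLE and 2868 and 15460 with library totals. In K5/K14 tumours they were 7440 and 12476, against 3239 and 20668 with library totals. Of the 7 genes, 6 rose in Ivl tumours under RLE and 5 under library totals, and 7 and 6 rose in K5/K14 tumours. Dhcr7 turned to -0.19 (adjusted p = 0.327) and -0.30 (adjusted p = 0.0865) with library totals, and Lss stayed at 0.49 in Ivl tumours without passing the test (adjusted p = 0.0795). Relative to the median of all genes, the 7 genes lay 0.96 to 3.14 above it in Ivl tumours with TMM and 0.94 to 3.03 above it with library totals. In K5/K14 tumours these ranges were 1.11 to 3.15 and 1.1 to 3.1. A scaling moves each gene and this median together, so the ranges could hardly differ and do not show that a rise holds. With filterByExpr, a stricter filter on low counts that changes the genes behind the median, Dhcr7 lay 0.67 above it in Ivl tumours. In K5/K14 tumours it then lay 0.72 above.

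**Figure D2:**
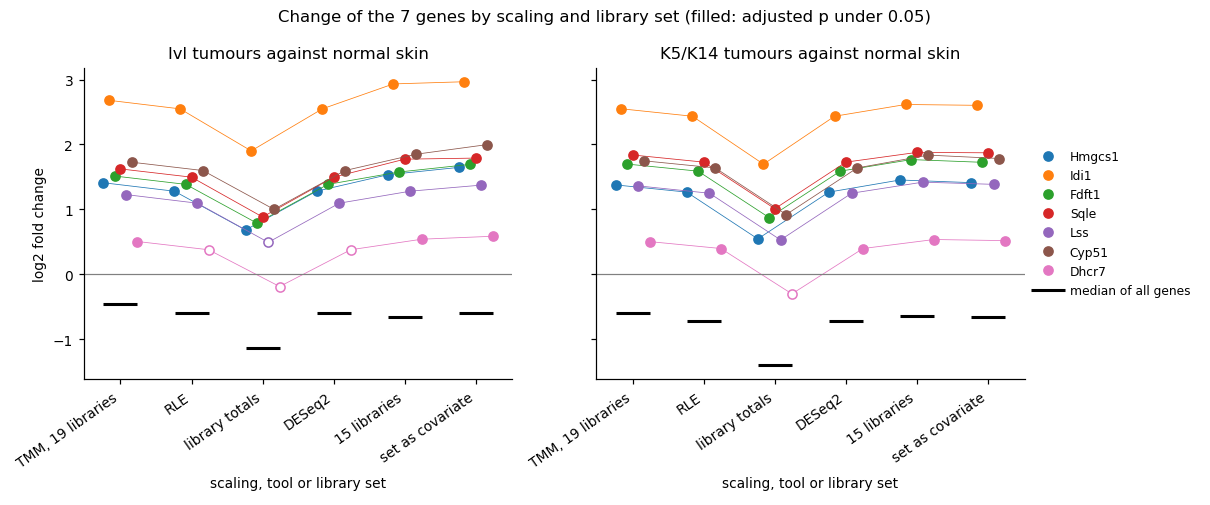
Log2 fold change against normal skin (y axis) of the 7 genes under each scaling, tool or library set (x axis), with filled points where the adjusted p was under 0.05 and black bars for the median of all genes. All values fall together with library totals, where Dhcr7 is below 0 (-0.19 in Ivl, -0.30 in K5/K14 tumours) while 6 of the 7 genes stay above 0 in both comparisons.

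The 15 tumours were not alike. Of them, Ivl 3 was the lowest for 4 of the 7 genes and K5 1 for 3, and both are in the set of 4, while K5 3 was the highest for 5. Among skin libraries, skin 2 was the highest for 6 genes and skin 4 the lowest for 6. Ivl 3 had 2546 CPM of summed skeletal muscle markers and 595 CPM of summed sebaceous gland markers, the most of any tumour for the latter, where the other tumours had 5.49 to 6621 and 80.7 to 475. Skin held 3154 to 13489 and 241 to 633 CPM of these. K5 1 had 12.3 CPM of muscle markers and 80.7 of sebaceous markers, and its summed fibroblast markers, at 15019.7 CPM, were the highest of the tumours (Ivl 3 10870, all tumours from 1483, skin 839 to 18449). The part of these tissues, or of the batch adjustment, in the low values was not tested. Against skin, the median log2 fold change of the 7 genes in Ivl tumours was 1.51 with 19 libraries and 1.58 with the 15. In K5/K14 tumours it was 1.70 and 1.77. Without Ivl 3, Idi1 and Lss did not overlap skin.

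**Figure D3:**
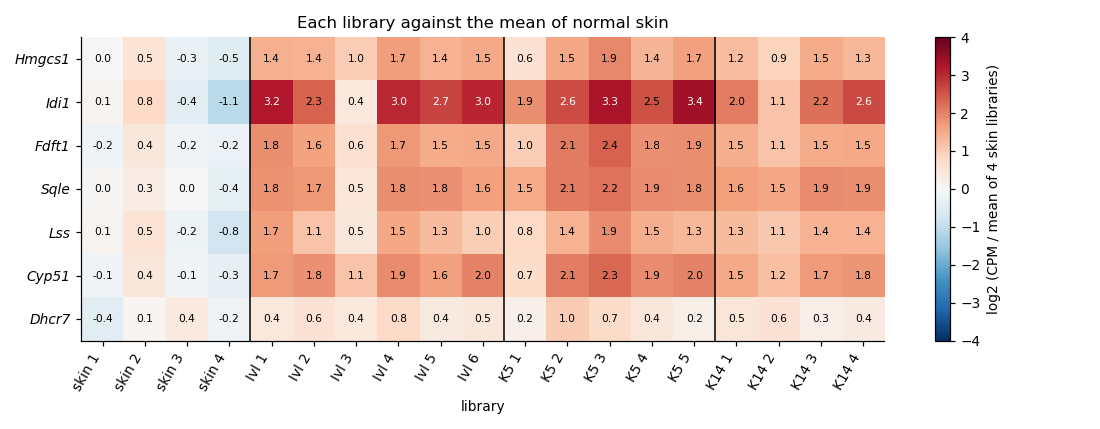
Log2 ratio of each library to the mean of the 4 skin libraries (colour and printed value) for the 7 genes (rows) in skin, Ivl, K5 and K14 libraries (columns, separated by black lines). Every tumour value is above 0, Idi1 reaches the highest ratios, Dhcr7 stays the palest, and columns Ivl 3 and K5 1 are pale for most genes.

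The levels of the 7 genes were correlated across libraries. Over all 19 libraries, the 21 pairs had Pearson's r of log2 CPM between 0.586 (Idi1 with Dhcr7) and 0.986 (Hmgcs1 with Cyp51), with a median of 0.935. Within the 15 tumours the median was 0.759, and the range ran from 0.116 (Idi1 with Dhcr7) to 0.959 (Hmgcs1 with Cyp51). Dhcr7 was the least tied to the others among tumours, with a median r of 0.368, and Fdft1 the most, at 0.859. These values describe libraries that share depth, scaling and tissue content, and carry no test.

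Levels were also compared between genes per kilobase of annotated exon. In tumours the order was Hmgcs1 (97.5 ± 21.1 CPM per kb, SD, n = 15), Cyp51 (75.6 ± 18.8), Sqle (54.1 ± 11.4), Fdft1 (46.3 ± 13.5), Idi1 (30.7 ± 13.5), Dhcr7 (14.4 ± 2.29) and Lss (12.0 ± 2.79). Of these neighbours, Sqle and Fdft1, and Dhcr7 and Lss, differed by less than the larger of their SDs. In skin Hmgcs1 (37.2 ± 12.1, n = 4) and Cyp51 (22.6 ± 5.62) were again first, followed by Sqle (16 ± 2.94) and Fdft1 (15 ± 3.65), then Dhcr7 (10.2 ± 2.40), Idi1 (5.05 ± 2.74) and Lss (4.86 ± 1.78), where Sqle and Fdft1, and Idi1 and Lss, differed by less than that. Idi1 thus stood below Dhcr7 in skin and above it in tumours. All exons of a gene were joined for its length, and those of Lss add up to 10787 bases, the longest of the 7, which lowers its value per kilobase.

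The question of the study, whether tumours differ by the cell that started them, was put to the 7 genes by comparing the models directly. The models also differ in inducing agent and latency, so a difference could not be assigned to the cell of origin alone. Between Ivl and K5/K14 tumours 0 of 7 genes passed the test, where 2.36% of all genes did in edgeR. The log2 differences (Ivl minus K5/K14) and their 95% intervals were 0.03 (-0.35 to 0.42) for Hmgcs1, 0.13 (-0.67 to 0.93) for Idi1 and -0.18 (-0.62 to 0.25) for Fdft1. They were -0.21 (-0.58 to 0.15) for Sqle, -0.13 (-0.55 to 0.28) for Lss, -0.02 (-0.43 to 0.39) for Cyp51 and 0.00 (-0.28 to 0.28) for Dhcr7. The intervals leave room for a difference of 0.28 for Dhcr7 and of up to 0.93 for Idi1, so the values do not show that the models are alike. Unadjusted p-values were 0.228 or more. With the 15 libraries 0 of 7 genes passed as well, with log2 differences from -0.19 to 0.32, and 131 of 31971 genes were called. On simulated counts of these groups the test found 53 of 100 genes changed 2-fold and 88 of 100 changed 4-fold. The changed genes were drawn at random among those over 2 CPM. These rates therefore do not tell how often a change in the 7 genes would be found.

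K5 and K14 tumours were also compared, and 0 of 7 genes passed, as did 0% of all genes in edgeR, with 1945 of them at an unadjusted p under 0.05 and 173 called by DESeq2. All 7 log2 differences (K5 minus K14) were above 0, but the genes were correlated among tumours (median r of 0.759), so these are not 7 separate results. The largest were 0.73 (95% interval -0.27 to 1.74) for Idi1 and 0.48 (-0.05 to 1.01) for Fdft1, with unadjusted p-values of 0.138 and 0.0680. With the 15 libraries, which leave out K5 1, the difference was 0.64 for Fdft1 (unadjusted p = 0.00156, adjusted p = 0.233), 0.90 for Idi1 (unadjusted p = 0.0306, adjusted p = 0.452) and 0.50 for Cyp51 (unadjusted p = 0.00938, adjusted p = 0.356). None of these passed after adjustment over all genes.

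Most other enzymes of the pathway also rose. Of 12 further enzymes of cholesterol synthesis, 11 rose and 0 fell in each comparison, with medians of 1.32 and 1.42. Of all genes 20.4% and 23.2% rose. With library totals 7 and 8 rose and 1 fell in each, where 2868 and 3239 of all 32031 genes rose. Hsd17b7, a reductase of the late steps, rose most, by 2.11 ± 0.30 and 2.61 ± 0.30. Ebp, the sterol isomerase, rose by 1.69 ± 0.21 and 1.98 ± 0.21, Pmvk, a kinase of the mevalonate steps, by 1.63 ± 0.25 and 1.86 ± 0.24, and Fdps, which makes farnesyl diphosphate, by 1.61 ± 0.24 and 1.73 ± 0.23. The 1 that did not rise was Lbr, a sterol reductase that also anchors chromatin at the nuclear envelope, named after its values were seen. Lbr was at -0.06 ± 0.21 in Ivl tumours (adjusted p = 0.816) and -0.37 ± 0.19 in K5/K14 tumours (adjusted p = 0.0969). It was at 93.5, 47.4, 63.5 and 43.8 CPM in skin and at 35.8 to 89.5 CPM in tumours, so the groups overlapped.

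**Figure D4:**
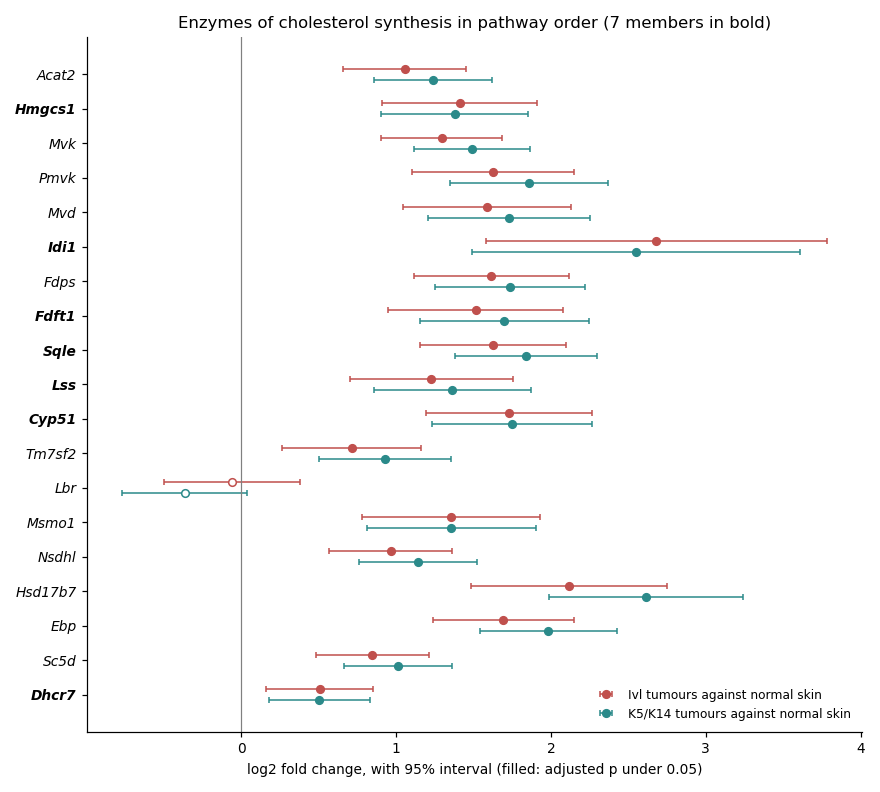
Log2 fold change against normal skin with its 95% interval (x axis) for 19 enzymes of cholesterol synthesis in pathway order from top to bottom (y axis, the 7 genes in bold), in Ivl tumours and in K5/K14 tumours, filled where the adjusted p was under 0.05. Intervals lie above 0 for each enzyme but Lbr in both comparisons.

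Of 7 genes that control SREBP activity, 3 rose and 0 fell in each comparison, beside 20.4% and 23.2% of all genes that rose, and the median was 0.07 in both. Scap, which escorts SREBP out of the endoplasmic reticulum, rose by 0.83 ± 0.15 and 0.97 ± 0.14. Srebf2 was at 167, 153, 139 and 88.1 CPM in skin and at 148 to 302 in tumours, and rose by 0.67 ± 0.17 (adjusted p = 0.00566) and 0.90 ± 0.17 (adjusted p = 0.000188). Mbtps2, a protease that releases SREBP, rose by 0.50 ± 0.15 and 0.37 ± 0.14. Insig1, itself a target of SREBP, was at 63.7 to 88.5 CPM in skin and 52.2 to 103 CPM in tumours, a difference of 0.07 ± 0.18 (adjusted p = 0.773) and 0.07 ± 0.17 (adjusted p = 0.721). With library totals Insig1 was at -0.64 (adjusted p = 0.00693) and -0.74 (adjusted p = 0.000535), and Srebf2 at -0.05 (adjusted p = 0.799) and 0.07 (adjusted p = 0.701). Of these 7 control genes 0 then rose in either comparison, while 4 fell in Ivl and 5 in K5/K14 tumours. With that scaling 15460 of all 32031 genes fell in Ivl tumours and 20668 in K5/K14 tumours, so falls were common among all genes. Within the 15 tumours Insig1 followed the mean of the 7 genes with r of 0.733, and over all 19 libraries with r of 0.425, given as a description.

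Among 5 genes of cholesterol uptake and transport, 2 rose and 0 fell in each comparison, with medians of -0.21 and -0.01. Of all genes 20.4% and 23.2% rose. With library totals 1 and 2 rose and 3 fell in each, and with the 15 libraries 2 rose and 2 fell in Ivl tumours. Of all 32031 genes 15460 and 20668 fell with library totals. With the 15 libraries 10465 of 31971 fell in Ivl tumours. Stard4, a carrier of sterol inside the cell, was at 41.5 to 48.8 CPM in skin and at 59.4 to 187 CPM in tumours, and rose by 1.54 ± 0.21 (adjusted p = 2.53e-05) and 1.71 ± 0.21 (adjusted p = 3.08e-06). Every tumour was above every skin library, with Ivl 3 the lowest. Npc2, which carries sterol out of the lysosome, was at 62.6, 63.8, 137 and 156 CPM in skin and at 151.5 to 380 CPM in tumours, a rise of 0.98 ± 0.24 (adjusted p = 0.004) and 1.57 ± 0.24 (adjusted p = 2.52e-05).

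Genes that remove or modify cholesterol did not move as 1 group. Of 6 genes of efflux and of the LXR receptors, which sense oxidised sterols, 1 rose and 2 fell in each comparison, with medians of -0.67 and -0.36. Of all genes 20.4% rose and 15.5% fell in Ivl tumours, and 23.2% rose and 38.9% fell in K5/K14 tumours, so the shares in K5/K14 tumours were near those of all genes. With library totals 0 rose, and 4 fell in Ivl and 3 in K5/K14 tumours, and 3 fell in Ivl tumours with RLE or with the 15 libraries. Of all 32031 genes 15460 and 20668 fell with library totals. In Ivl tumours 6828 of 32031 fell with RLE and 10465 of 31971 with the 15 libraries. Abca1, the efflux pump, fell by 1.43 ± 0.41 and 1.29 ± 0.37, and Nr1h3 (LXR-alpha) fell by 1.44 ± 0.52 and 1.61 ± 0.46. Nr1h2 (LXR-beta) rose by 0.49 ± 0.10 and 0.65 ± 0.10. Of 6 measured genes of esterification, sulphation and oxysterols, 3 rose and 0 fell in Ivl tumours, and 4 rose and 2 fell in K5/K14 tumours. With RLE, with library totals or with the 15 libraries, 2 fell in Ivl tumours as well. Sult2b1, which makes the cholesterol sulphate of the cornified layer, rose by 2.72 ± 0.32 and 2.63 ± 0.31, and Cyp7b1, an oxysterol hydroxylase, by 2.65 ± 0.37 and 2.50 ± 0.36. Soat1, which stores cholesterol as ester, fell by 2.96 ± 0.59 in K5/K14 tumours. Hsd3b7 was among those called, but it held 0 counts in skin and at most 5 in any tumour, so no fold is given.

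The branch of the pathway that leads to isoprenoids other than sterols was raised in part. Of 8 such genes, 4 rose and 0 fell in Ivl tumours, and 5 rose and 1 fell in K5/K14 tumours, with medians of 0.54 and 0.53. Of all genes 20.4% and 23.2% rose. With library totals 1 rose in each, and 3 and 4 fell, where 15460 and 20668 of all 32031 genes fell. Nus1, a subunit of the dolichol-making enzyme, rose by 1.25 ± 0.19 and 1.30 ± 0.18, and the farnesyltransferase subunits Fnta and Fntb rose by 0.91 ± 0.16 and 0.81 ± 0.18 in Ivl tumours and by 0.93 ± 0.15 and 0.73 ± 0.17 in K5/K14 tumours. Of 10 genes of fatty acid synthesis, 0 rose and 0 fell in Ivl tumours, where 15.5% of all genes fell. In K5/K14 tumours 0 rose and 8 fell, where 38.9% of all genes fell. The medians of the list were -0.60 and -0.80, near those of all genes at -0.46 and -0.60. Scd1, the desaturase, fell by 3.87 ± 0.73 in K5/K14 tumours, Elovl6 by 2.32 ± 0.51, Fasn, the fatty acid synthase, by 1.55 ± 0.37 and Fads2 by 1.54 ± 0.38. Scd1 was at 1154 to 3460.3 CPM in skin and at 52.5 to 528 CPM in K5/K14 tumours. Among Ivl tumours Scd1 was at 2246 CPM in Ivl 3 and 1653 in Ivl 2 but at 105 to 291 in the other 4, and with the 15 libraries 5 of the 10 genes fell in Ivl tumours, Scd1 by 3.7. With library totals 9 fell in each comparison, and with RLE 2 in Ivl and 8 in K5/K14 tumours. Of all 32031 genes 6828 fell in Ivl tumours with RLE and 13711 in K5/K14 tumours. With the 15 libraries 10465 of 31971 fell in Ivl tumours.

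**Figure D5:**
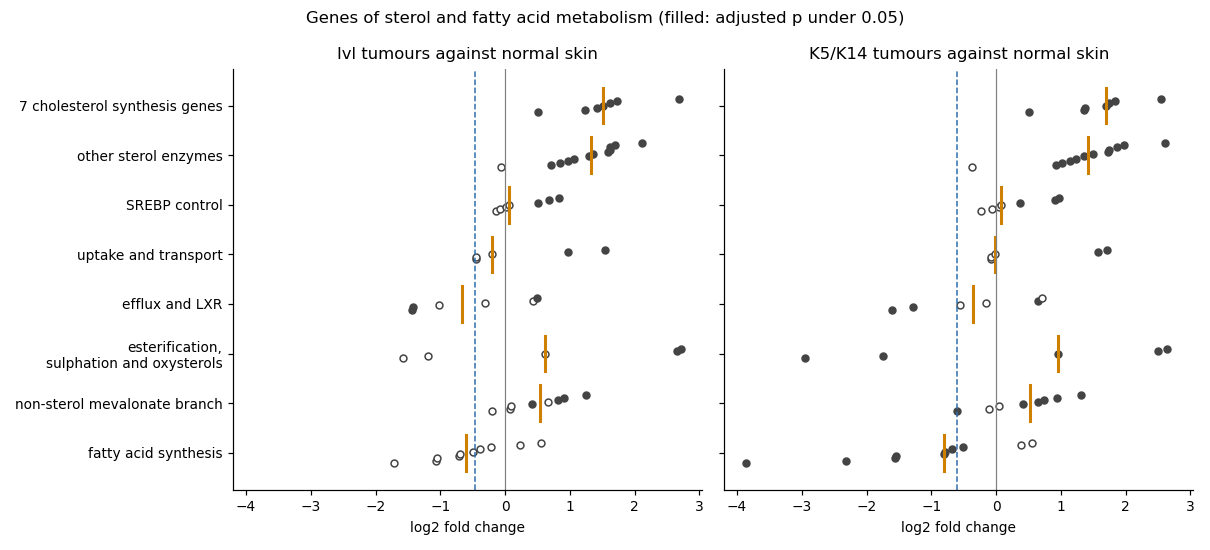
Log2 fold change against normal skin (x axis, the same in both panels) of each gene in 8 lists (y axis), filled where the adjusted p was under 0.05, with the median of the plotted genes as an orange bar and the median of all genes as a dashed line. Hsd3b7 is left out for its low counts. The 7 genes and the other sterol enzymes lie mostly above 1, while fatty acid synthesis lies mostly below 0 with medians of -0.60 and -0.80. The dashed lines are at -0.46 and -0.60.

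Markers of cell types moved between skin and tumours beside these genes. Of all genes 20.4% rose and 15.5% fell in Ivl tumours, and 23.2% rose and 38.9% fell in K5/K14 tumours. Summed markers of basal keratinocytes were at 4101 to 9077 CPM in skin and at 10888 to 66552 CPM in tumours, and 4 of 7 rose in Ivl tumours and 6 of 7 in K5/K14 tumours, with Krt15 falling in the latter. Summed markers of differentiated keratinocytes were at 3018 to 6384 CPM in skin and at 12477 to 60746 CPM in tumours, and 9 of 9 rose in both. Krt14 rose by 3.34 ± 0.43 and 3.74 ± 0.43 and Krt5 by 2.29 ± 0.34 and 2.33 ± 0.33. With library totals 3 and 5 of the basal and 8 and 8 of the differentiated markers rose, where 2868 and 3239 of all 32031 genes rose. Of 9 proliferation genes 7 and 6 rose, and with library totals 0 and 1. Sebaceous gland markers (0 of 9 raised, 0 and 5 lowered), adipocyte markers (0 of 9 raised, 0 and 5 lowered) and skeletal muscle markers (0 of 9 raised, 0 and 9 lowered) mark other tissues of whole skin. In Ivl tumours, where none of these passed with 19 libraries, 3 sebaceous gland, 5 adipocyte and 4 skeletal muscle markers fell with the 15 libraries, and 1 adipocyte marker rose. Falls among all genes in Ivl tumours also grew, from 4980 of 32031 with 19 libraries to 10465 of 31971 with the 15. Of 8 hair follicle markers 0 and 1 fell, of 7 fibroblast markers 0 and 1 and of 6 macrophage markers 0 and 1. In K5/K14 tumours each of these shares was below that of all genes that fell. With the 15 libraries 0 and 1 hair follicle, 3 and 2 fibroblast and 2 and 4 macrophage markers fell, and with library totals 0 and 3, 3 and 2, and 3 and 5. Of all genes 10465 and 13533 of 31971 fell with the 15 libraries, and 15460 and 20668 of 32031 with library totals. The part of these tissues in the rise of the 7 genes was not tested.

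Across the whole transcriptome, the 5 genes outside the lists whose log2 CPM was most like the mean of the 7 (Pearson's r over 19 libraries, among 13756 genes over 2 CPM) were Gm3571 (0.973), Bnipl (0.957), Rcc1l (0.953), Faf2 (0.953) and Gk (0.951). Within the 15 tumours their r was 0.843 to 0.883. Gm3571 is a processed pseudogene identical to Fdps over 143 bases, so its reads and those of Fdps cannot be told apart there, and Fdps itself had r of 0.980. Bnipl rose by 1.42 ± 0.19 and 1.44 ± 0.18, Gk, glycerol kinase, by 2.20 ± 0.35 and 2.13 ± 0.34, Rcc1l by 0.95 ± 0.12 and 1.07 ± 0.12, and Faf2 by 0.47 ± 0.09 and 0.48 ± 0.09. As descriptions over libraries that differ in tissue content, these values carry no test.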

How the data were processed

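RNA of 19 libraries was sequenced from a strand-specific poly(A) kit. According to the methods, the authors trimmed reads, aligned them to GRCm38 with HISAT2 2.1.0, counted them per gene with featureCounts of Subread 1.6.3 (Ensembl release 100) and adjusted the counts for batch with ComBat-seq. The deposited values are therefore estimated counts. They are whole numbers, but the adjustment moves libraries towards each other, and the labels name no batch. Symbols came from GENCODE M21, which matched 34694 of 34807 identifiers.

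The 7 genes and all lists were chosen with earlier results of these data known. A gene needed 5 or more counts in 1 or more libraries to be tested, which left 32031. The test was edgeR 4.0.16 (R 4.3.3, limma 3.58.1) with TMM scaling and quasi-likelihood F tests, two-sided, on 3 groups (Ivl, K5/K14, skin), and on 4 groups for K5 against K14, called at an adjusted p under 0.05. Intervals of 95% used the t distribution with the residual degrees of freedom. Alternatives were DESeq2 1.42.0, RLE scaling, library totals, other filters, each library left out, the 15 libraries, the set of 4 as a covariate, a replicate block and 4 groups. Leaving out libraries within the 15 was added after seeing the data. From each of 17 lists up to 4 called genes per comparison, largest change first, could be named, besides the 7, Srebf2, Insig1 and the 5 genes most alike. Some genes of these pathways are not reported here. The test was tried on simulated counts. Sequences came from RefSeq (GRCm38.p6).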

Additional observations from a re-analysis of the deposited data

Results flagged for a closer look

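Of 45 groups of 4 to 10 libraries tested over 9 genes, 2 held a library far from the others, where chance flags about 1 in 20 groups. Sqle was at 125 CPM in Ivl 3, and the next Ivl tumour was at 277. Fdft1 was at 86.4 CPM in skin 2, and the next skin library at 57.0.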

How the results depend on the processing

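All genes called in Ivl tumours against skin numbered 11515, and 18328 with library totals, 17566 with the 15 libraries, 9165 to 14757 with each library left out and 14215 to 17541 with each left out of the 15. Between Ivl and K5/K14 tumours 756 were called, and 2133 with DESeq2, 131 with the 15 libraries, 449 with the set of 4 as a covariate, 127 to 1328 with each library left out and 50 to 225 within the 15. For K5 against K14 tumours 0 were called, and 173 with DESeq2, 17 with the 15 libraries, 2 with the 9 libraries alone and 2 to 23 within the 15. With library totals, Dhcr7 turned to -0.19 in Ivl and -0.30 in K5/K14 tumours, Srebf2 to -0.055 in Ivl tumours and Insig1 to -0.64 and -0.74. The call of Dhcr7 in Ivl tumours was also lost with RLE (0.38), filterByExpr (0.35) and DESeq2 (0.38). The cause of these changes was not tested, beyond the shift that library totals give to all genes.

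The median correlation of same-number pairs was -0.0064 and that of other pairs -0.0094, so no pairing by replicate number was seen. Of 25 same-number pairs, 9 correlated above 0.1. The replicate block called 46 genes between Ivl and K5/K14 tumours. With each library left out, 6 to 7 of the 7 genes rose in Ivl tumours and 7 in K5/K14 tumours.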
